A study of Mus musculus with 24 samples.

Results

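Rad21, Stag2, Smc1a, Smc3, Nipbl, Ctcf, Ezh2, Suz12 and Eed encode core parts of 3 chromatin systems whose genes are often mutated in the leukemia that carries the short form of GATA1. They were chosen by name, and all 9 were found among the 47069 gene identifiers of the count table by matching Ensembl identifiers to mouse gene symbols. Each had counts in all 24 libraries, between 901 reads for Eed and 7810 for Rad21 in single libraries, and all 9 passed the filter on low counts. They are described here across 8 groups of fetal liver cells, with and without added miR-125b.

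Cohesin is a ring that holds sister chromatids together and extrudes chromatin loops. SMC1A and SMC3 form its long arms, RAD21 closes the ring, STAG2 is one of the alternative subunits that dock on RAD21, and NIPBL loads and drives the complex. CTCF is the zinc finger protein whose bound sites stop loop extrusion and so set loop anchors. PRC2 methylates histone H3 at lysine 27, with EZH2 as the catalytic subunit, SUZ12 as its scaffold and EED as the subunit that binds the methylated histone and stimulates the enzyme. In blood cells these complexes help set the balance between self-renewal and differentiation of progenitors.

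The libraries came from cultured mouse fetal liver cells named Gata1s-FLCs, taken at E12.5-13.5 of embryonic development from a strain on the B6J background with a Fezh allele at the Rosa26 locus, (CAG-cas9*,-EGFP), in which the ubiquitous CAG promoter drives Cas9 and EGFP. All 8 groups share this strain and a guide transgene, sgGata1, so no group without the guide was compared. A second transgene was either miR-125b or miR-ctrl, giving 2 arms. Day 2 cells received 1 ug/mL doxycycline for 48 hours, day 10 cells had it for 10 days, and day 13 cells had it for 13 days. In the groups labelled Day13WD doxycycline was withdrawn on day 10, and the cells were taken on day 13. Each group holds 3 libraries with replicate numbers 1 to 3. The labels do not say how many embryos or clones stand behind them, nor whether replicates were separate cultures, so p-values measure the spread between these libraries, which may be technical.

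Library totals ran from 14694900 to 23755245 counts. Genes that mark megakaryocytes were abundant, with a summed level of 2860 to 7470 CPM (read counts normalised to library size) over 10 genes and a mean of 1990 CPM for Pf4, but 8 mast cell and basophil markers summed to 202 to 1350 CPM, 8 erythroid markers to 274 to 620 CPM and 8 neutrophil markers to 5.26 to 98.4 CPM. The sums of 6 lymphoid and 7 hepatocyte markers reached at most 0.734 and 4.56 CPM. Gata1 was counted at 194 to 514 CPM. Gene counts cannot separate its short form from the full one, so they do not check the edit. Arid3a, a known target of miR-125b, was lower in the miR-125b arm in 12 of 12 replicate pairs, by 0.77 ± 0.081 on the log2 scale over the 4 conditions (adjusted p = 5.85e-05, edgeR's quasi-likelihood test), but its difference was -0.22 (adjusted p = 0.999) in the libraries labelled continued day 13 and -1.15 (adjusted p = 0.00435) in those labelled withdrawal. The library labelled miR-ctrl Day13WD replicate 1 stood apart. It had the highest share of mitochondrial counts, 3.31% against at most 1.97% in the other libraries, and the fewest genes with a count, 16532.

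That library also held the highest level among all 24 for 6 of the 9 genes, Stag2, Smc1a, Smc3, Nipbl, Ctcf and Suz12. Fold changes of the 9 genes in comparisons that involve its group are therefore given with and without it. Ranges over libraries or groups, shares of variance, correlations, and values of Arid3a, markers and partner genes include it unless stated. Whether a difference in such bulk counts reflects fewer cells of a type or less RNA per cell cannot be told apart.

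Rad21 was the most abundant of the 9 per length, and Nipbl the least. Levels between genes were compared as CPM per kilobase of annotated exon, averaged over the 24 libraries. Rad21 (ENSMUSG00000022314, chr15:51962240-51991747, minus strand, GRCm38) stood at 77.6 ± 5.87 CPM per kilobase (SD, n = 24). Smc1a (ENSMUSG00000041133, chrX:152016428-152062694, plus strand) followed at 38.2 ± 3.71. Smc3 (ENSMUSG00000024974, chr19:53600398-53645833, plus strand), its partner in the ring, was at 32.9 ± 3.21. The ratio of these SMC arms, Smc1a over Smc3 per length, stayed between 1.05 and 1.36 in all 24 libraries. Stag2 (ENSMUSG00000025862, chrX:42149317-42277185, plus strand) was at 15.6 ± 2.46 and the loader Nipbl (ENSMUSG00000022141, chr15:8290617-8444463, minus strand) at 10.1 ± 1.38.

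Ctcf (ENSMUSG00000005698, chr8:105636568-105682922, plus strand) lay near the SMC genes, at 35.0 ± 3.27 CPM per kilobase. The PRC2 scaffold Suz12 (ENSMUSG00000017548, chr11:79993106-80034123, plus strand) was at 37.4 ± 3.41, above its partners with this length, though not above Ezh2 with the longest transcript as the length (42.3 against 45.4). The catalytic gene Ezh2 (ENSMUSG00000029687, chr6:47530139-47595341, minus strand) was at 18.9 ± 1.93 and Eed (ENSMUSG00000030619, chr7:89954654-89980983, minus strand) at 17.4 ± 2.17. Exons of Stag2, Ctcf, Ezh2, Suz12 and Eed overlap genes on the opposite strand, and the counting strand is not given in the sources used here, so reads from those overlaps cannot be assigned to one gene.

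With the union of annotated exons as the length, the order of levels had 2 clear steps. Rad21 exceeded Smc1a in 24 of 24 libraries with ranges of 64.4 to 90.9 and 33.7 to 46.3 CPM per kilobase, which did not overlap. Smc3 exceeded Ezh2 in 24 of 24 libraries, at 28.3 to 40.1 against 15.9 to 22.3, again without overlap. Between these steps neighbours did not separate beyond their spread: Smc1a was above Suz12 in 14 of 24 libraries, Suz12 above Ctcf in 19 and Ctcf above Smc3 in 22. Ezh2 was above Eed in 23 libraries, Eed above Stag2 in 20 and Stag2 above Nipbl in 24, although all 3 pairs of ranges overlapped. With the longest annotated transcript as the length, Ezh2 moved from rank 6 to rank 3, because the union of its exons is 6678 bases and its longest transcript 2787. Ezh2 then averaged 45.35 and Eed 32.19, against 37.55 for Smc3, so the second step did not hold with that length.

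**Figure D1:**
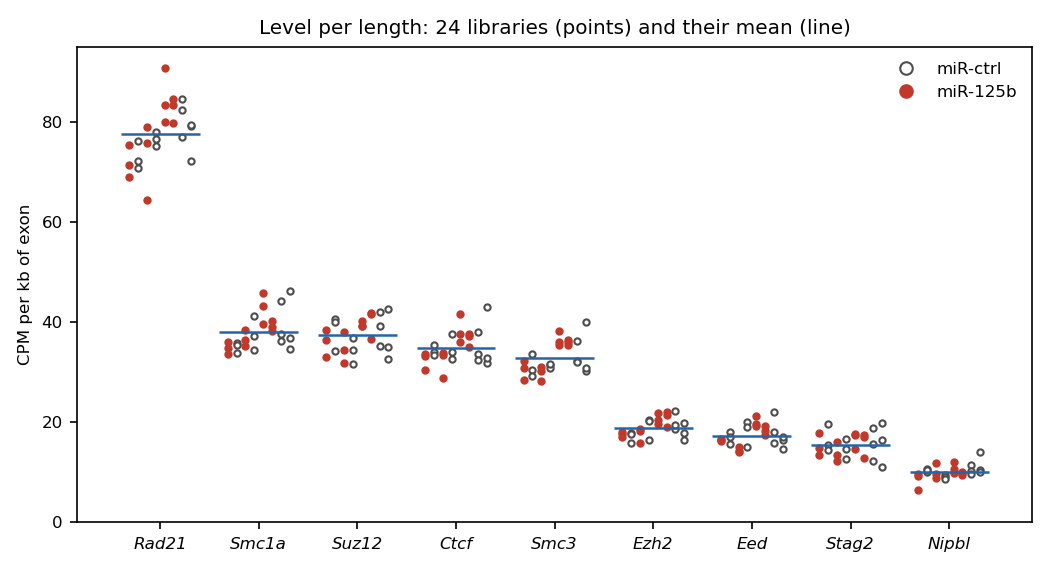
Level of each of the 9 genes in CPM per kilobase of annotated exon (vertical axis), with 1 point per library and genes ordered by their mean over 24 libraries. Rad21, at 64.4 to 90.9, lies above all other genes, and a gap separates Smc3, at 28.3 or more, from Ezh2, at 22.3 or less. With the longest transcript as the length Ezh2 averaged above Smc3, so this gap depends on the length used.

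Nipbl, Stag2 and Eed varied most across the 24 libraries, and Eed and Nipbl most across the groups. The ratio of the highest to the lowest of the 24 libraries was 2.13 for Nipbl, from 61.8 CPM in miR-125b day 2 replicate 3 to 131.9 CPM in miR-ctrl Day13WD replicate 1. It was 1.79 for Stag2, 1.57 for Eed and 1.35 to 1.49 for the other genes. The range over the 8 group means was 0.22 to 0.47 on the log2 scale, with a median of 0.28. It was 0.47 for Eed, 0.44 for Nipbl and 0.30 or less for the other 7. Over all 13419 genes tested the median range was 0.46 and, over the 5841 genes with an average log2 CPM of at least 5, it was 0.32. For 9 of 9 genes the highest group mean was a day 13 group, either continued or withdrawal. Day 13 has as many groups as day 2 and day 10 together, and the share over all genes was not computed. The same libraries enter all 9 genes. For Nipbl the highest group was miR-ctrl Day13WD, which holds the library that stood apart.

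**Figure D2:**
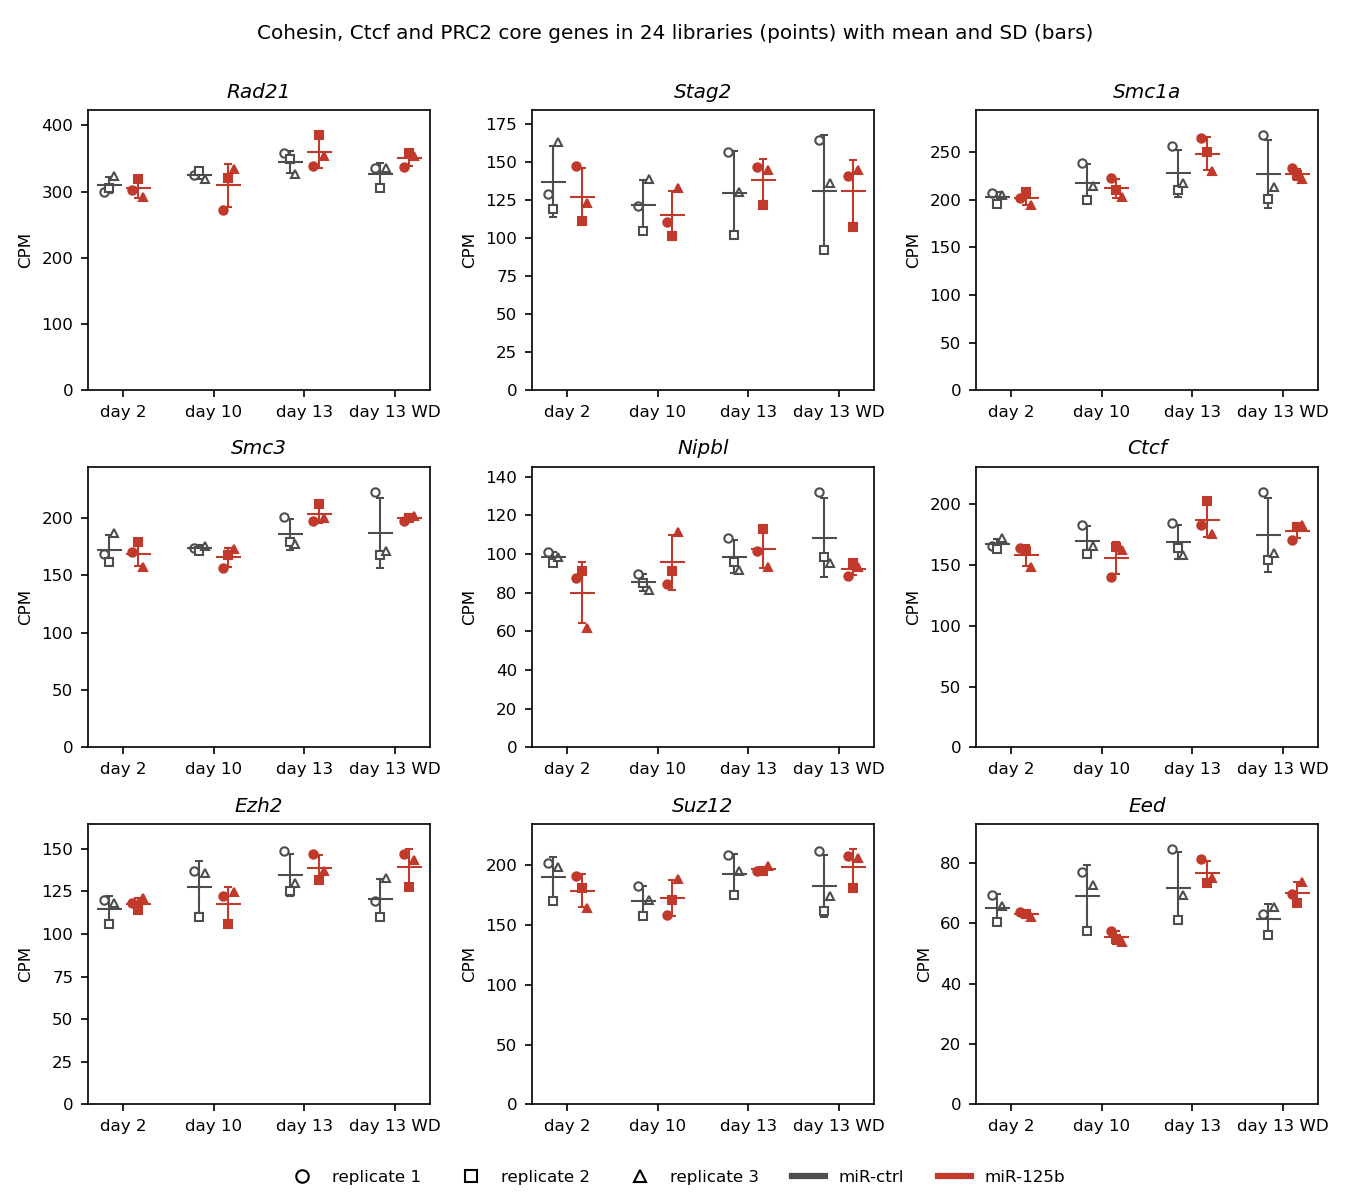
CPM (vertical axis, from 0) of each gene in the 8 groups, with 1 symbol per library by replicate number, open grey for miR-ctrl and filled red for miR-125b, and bars for the mean and SD (n = 3). WD marks withdrawal of doxycycline; the symbols of the arms interleave in most panels, and the squares of replicate 2 are the lowest Stag2 and Ezh2 values in every group.

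Stag2 and Ezh2 were low in the same replicate throughout. Stag2 was lowest in replicate 2 in 8 of 8 groups, where it was at 92.1 to 122 CPM, against 111 to 164 CPM in replicate 1 and 123 to 163 CPM in replicate 3. Replicate number accounted for 60.3% of the variance of Stag2 log2 CPM and group for 12.6%, whereas the median share for replicate number over all tested genes was 18.3%. Ezh2 was also lowest in replicate 2 in 8 of 8 groups, at 106 to 132 CPM, against 118 to 149 CPM in replicate 1 and 118 to 143 CPM in replicate 3. For Ezh2 replicate number accounted for 33.2% and group for 54.5%, and for Smc3 the share of replicate number was the smallest of the 9, 2.20%. Suz12 and Eed were each lowest in replicate 2 in 6 of 8 groups and highest there in 0. Smc1a was highest in replicate 1 in 7 of 8 groups. The shares for replicate number were 24.9% for Suz12, 21.4% for Eed and 28% for Smc1a. How many of all genes are lowest in the same replicate in every group was not computed. Group has 8 levels and replicate number 3, so a larger share for group is not by itself a stronger effect.

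Other genes moved with the replicate number too. In replicate 2 the summed level of the 10 megakaryocyte markers was the highest in 8 of 8 groups, at 5330 to 7470 CPM, and Gata1 was likewise highest there in 8 of 8. Replicate 1 held the lowest megakaryocyte sum in 8 of 8 groups, at 2860 to 4530 CPM. The part of these markers in the Stag2 and Ezh2 values was not tested.

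The paralogs of both genes were measured as well. Stag1, the alternative to Stag2 in the ring, was lower per length: the ratio of Stag2 to Stag1 was 2.11 to 4.18 over the libraries and was lowest in replicate 2 in each group. Ezh1, the other H3K27 methyltransferase of PRC2, was lower than Ezh2 in every library, with a ratio of 3.45 to 7.40. No group stood clear of the others in either ratio. The Stag2 ratio had group means from 2.89 to 3.5, and the Ezh2 ratio from 4.22 to 6.41, with SDs of up to 0.924 and 1.35.

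Whether miR-125b altered these genes was asked at each time point. Averaged over the 4 conditions, no gene of the 9 passed: edgeR's quasi-likelihood test called 0 of 9 at an adjusted p under 0.05, against 1.28% of all 13419 genes tested, and 0 had an unadjusted p under 0.05, by edgeR or by DESeq2. The log2 differences ran from -0.08 for Nipbl to 0.04 for Ezh2, with adjusted p from 0.762 to 0.986. Their 95% intervals together covered -0.23 to 0.18, the widest being that of Stag2. Without miR-ctrl Day13WD replicate 1 the differences ran from -0.036 for Nipbl to 0.067 for Smc3, those of Stag2 and Ctcf moved from -0.025 to 0.024 and from -0.0060 to 0.032, and again 0 of 9 were called, with a lowest adjusted p of 0.408. The median SE was 0.051 for the 9 genes and 0.092 over all genes.

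**Figure D3:**
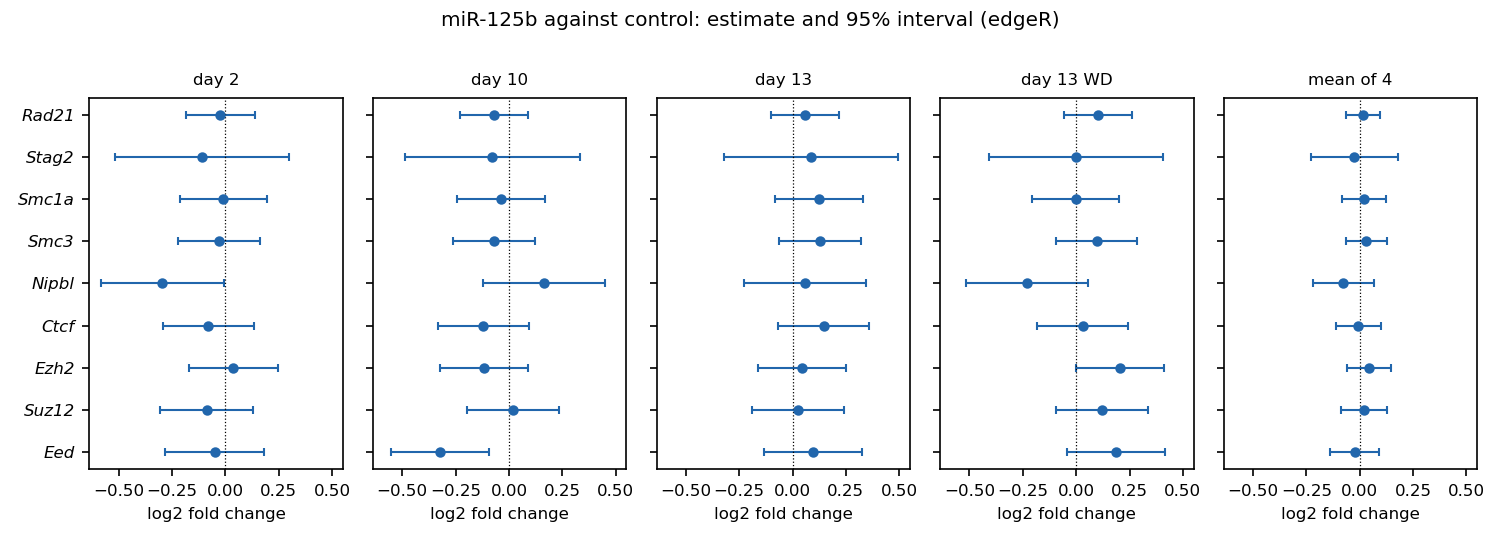
Log2 fold change of miR-125b against miR-ctrl (horizontal axis) for each gene, with its 95% interval from edgeR, at day 2, day 10, day 13 and after withdrawal, and for the mean of the 4 conditions. Averaged over conditions, estimates lie between -0.08 and 0.04, and the intervals that stay below 0 are those of Nipbl at day 2 and Eed at day 10.

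Rad21 and Smc1a were the only members with a match to the miR-125b seed in the 3′ UTRs searched, and the sites are shown because they are where the added miRNA could pair with these messages. The mature miR-125b-5p (RefSeq) is given with its seed, bases 2 to 8, in capitals.
miR-125b-5p: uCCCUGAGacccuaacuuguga
Annotated 3′ UTRs (GENCODE M21, GRCm38) were searched on the message strand for CTCAGGG, which pairs with bases 2 to 8, and for TCAGGGA, which pairs with bases 2 to 7 and has an A opposite base 1. Rad21 held 1 match of the first kind, in its 1816-base 3′ UTR on the minus strand at chr15:51963388-51963394, and Smc1a held 2 of the second kind in its 885-base 3′ UTR on the plus strand, at chrX:152062164-152062170 and chrX:152062320-152062326. The matched bases are in capitals, with flanking 3′ UTR in lower case.
Rad21 site: tggcgtgactcCTCAGGGgctgcagatcac
Smc1a site 1: gctgagtttagTCAGGGAccatgtctttct
Smc1a site 2: gtaagatttagTCAGGGActaagagtagag
Stag2, Smc3, Nipbl, Ctcf, Ezh2, Suz12 and Eed held neither in the transcripts searched, whose 3′ UTRs were 402 to 1933 bases. Among 11659 tested genes with a 3′ UTR, 15.9% held CTCAGGG and 23% held one of these matches.

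Rad21, with its match, was at 0.02 ± 0.038 between the arms over the 4 conditions (adjusted p = 0.928, higher in 8 of 12 replicate pairs). Smc1a was at 0.02 ± 0.049 (adjusted p = 0.938, higher in 7 of 12 pairs). Neither estimate exceeded its SE. Without miR-ctrl Day13WD replicate 1, Rad21 was at 0.02 ± 0.038 and Smc1a at 0.05 ± 0.041 (adjusted p = 0.626).

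At day 2, Nipbl was the one gene with an unadjusted p under 0.05, and 0 of 9 were called, against 0% of all genes, of which 709 had an unadjusted p under 0.05. DESeq2 likewise called 0 of 9, with 1 under 0.05. Nipbl, the cohesin loader, was at 87.4, 91.0 and 61.8 CPM in the miR-125b libraries and at 101.2, 95.4 and 98.3 CPM in the miR-ctrl libraries. All 3 miR-125b values lay below all 3 control values, and replicate 3 was by far the lowest. The log2 difference was -0.30 ± 0.14 (adjusted p = 0.94), and without miR-125b replicate 3 it was -0.14. The other 8 genes lay between -0.11 and 0.04.

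Eed was the gene that differed most at day 10. Among the miR-125b libraries it was at 57.6, 54.7 and 53.7 CPM, a mean of 55.3 ± 2.03 (SD, n = 3). In the miR-ctrl libraries it was at 77.1, 57.5 and 72.8 CPM, a mean of 69.1 ± 10.3 (SD, n = 3). The groups met only at replicate 1 of the one and replicate 2 of the other, and Eed was lower in 3 of 3 pairs of the same replicate number.

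The log2 difference of Eed was -0.32 ± 0.11 (adjusted p = 0.134), so edgeR called 0 of 9 genes at day 10, against 0.872% of all genes tested. DESeq2 also called 0, and each tool had 1 gene, Eed by edgeR, under an unadjusted p of 0.05. With the replicate number as a block, edgeR called 1 of 9, Eed, at -0.31 ± 0.087 (adjusted p = 0.0301), against 8.63% of all genes. Leaving out single libraries moved the value from -0.24, without miR-ctrl replicate 1, to -0.44, without miR-ctrl replicate 2. In the last of these fits it passed, with an adjusted p of 0.0498. The other 8 genes lay between -0.12 and 0.16 with adjusted p of 0.599 or more.

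Proliferation genes moved alongside Eed at day 10. The summed level of 15 such genes, Mki67 and the replication helicase Mcm genes among them, was 4750 to 4910 CPM with miR-125b and 4950 to 5550 CPM with miR-ctrl, ranges that did not overlap. Their median log2 difference was -0.13, with 2 of 15 above 0 and 0 of 15 called. Over all 24 libraries the log2 CPM of Eed followed their mean with Pearson's r of 0.808 and Spearman's rho of 0.824, and r was 0.765 without the 2 libraries farthest from the median. Ezh2 had r of 0.668, and the remaining genes 0.443 to 0.629, except Nipbl at -0.019. With the mean of each replicate number subtracted, r was 0.781 for Eed. It was then 0.602 for Ezh2, below Smc3 (0.643), Ctcf (0.634) and Smc1a (0.607). These libraries share groups and replicate numbers, and the part of the proliferation genes in the Eed result was not tested.

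The Eed difference between the arms did not pass a test of change between day 2 and day 10. At day 2 the Eed levels were 63.8, 63.0 and 62.1 CPM with miR-125b and 69.4, 60.4 and 65.8 CPM with miR-ctrl, which overlapped. Its log2 difference at day 10 minus that at day 2 was -0.27 (adjusted p = 0.757, edgeR). With the block it was -0.27 too (unadjusted p = 0.0405, adjusted p = 0.402). For Nipbl the same contrast was 0.46 ± 0.195 (adjusted p = 0.709), higher in 3 of 3 replicate sets, and 0.30 without miR-125b day 2 replicate 3. Nipbl at day 10 was at 84.3, 91.4 and 111.3 CPM with miR-125b and 89.7, 85.3 and 81.2 CPM with miR-ctrl, again overlapping. In this contrast edgeR called 0 of 9 genes and 0% of all genes, with 1 of 9 and 920 of all under an unadjusted p of 0.05. DESeq2 called 0 of 9 and had 1 under 0.05.

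On day 13 with continued doxycycline all 9 estimates were above 0, from 0.03 for Suz12 to 0.15 for Ctcf. None was called by edgeR or DESeq2 and none had an unadjusted p under 0.05 by either, against 0% of all genes called and 388 under 0.05 by edgeR. With the replicate number as a block 0 of 9 were called, against 0.0149% of all genes. Their median was 0.09, against -0.016 over all genes, of which 46.2% were higher. The same libraries enter all 9 estimates, so their shared sign is not 9 separate observations. Ctcf, as the largest, was at 183.4, 202.8 and 175.7 CPM with miR-125b and 185.1, 164.2 and 158.2 CPM with miR-ctrl. These ranges overlapped. All 15 proliferation genes were also above 0 there, with a median of 0.12 and 0 of 15 called.

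After withdrawal the arms differed in no gene of the 9 at the threshold. Without the block edgeR called 0 of 9 against 0.119% of all genes, and 0 of 9 had an unadjusted p under 0.05 by edgeR or DESeq2. With the replicate number as a block edgeR also called 0 of 9, against 1.86% of all genes. In that fit Ezh2 was at 0.21 ± 0.070 (unadjusted p = 0.00786, adjusted p = 0.142). Eed was at 0.19 ± 0.087 (unadjusted p = 0.0414, adjusted p = 0.296). An unadjusted p under 0.05 was reached by 2100 of all genes there. Ezh2 lay at 147.0, 127.6 and 143.4 CPM with miR-125b and at 119.5, 109.9 and 132.9 CPM with miR-ctrl. It was higher in 3 of 3 replicate pairs, and the groups overlapped because replicate 2 was low in both. Eed lay at 69.7, 66.6 and 73.8 CPM with miR-125b and at 63.1, 56.2 and 65.3 CPM with miR-ctrl, without overlap. Its log2 difference was 0.19 ± 0.11 (adjusted p = 0.672, edgeR), and 0.21 without miR-ctrl Day13WD replicate 1. That is the opposite sign to day 10, where it was -0.32. Over the 4 conditions Eed was at -0.02 ± 0.055 (adjusted p = 0.934, edgeR).

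The library that stood apart belongs to this comparison. Without it the log2 difference of Nipbl went from -0.23 to -0.07, that of Stag2 from -0.0013 to 0.20, that of Smc1a from -0.0014 to 0.13, that of Smc3 from 0.10 to 0.24, that of Ctcf from 0.03 to 0.18 and that of Suz12 from 0.12 to 0.24. The unadjusted p was then under 0.05 for 2 of 9, Smc3 and Suz12, and the lowest adjusted p of the 9 was 0.202, for Smc3. Nipbl, at 88.7, 95.7 and 93.4 CPM with miR-125b, had control values of 131.9, 98.7 and 95.2 CPM, of which only the first stood clear of the rest. The difference between the arms' responses to withdrawal called 0 of 9 genes and 0% of all genes, with 0 of 9 and 226 of all under an unadjusted p of 0.05 by edgeR, and 0 of 9 by DESeq2. Its estimates ran from -0.29 for Nipbl to 0.16 for Ezh2, and without that library from -0.12 for Nipbl to 0.21 for Suz12, with the median moving from -0.034 to 0.11 and 0 of 9 called.

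Time was then compared with both arms averaged. From day 2 to day 10 the 9 genes lay between -0.16 for Stag2 and 0.09 for Smc1a. EdgeR called 0 of 9, against 1.06% of all genes, and 0 of 9 had an unadjusted p under 0.05 by edgeR or DESeq2. Smc1a was higher at day 10 in 6 of 6 replicate pairs and Stag2 lower in 5 of 6. Stag2 had the widest interval, -0.45 to 0.13.

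From day 10 to continued day 13 all 9 estimates were positive, but none was called. The log2 differences were 0.13 to 0.26 with a median of 0.16, whereas the median over all tested genes was -0.0070 and 48.3% of those genes were higher. EdgeR called 0 of 9 and 0% of all genes. Unadjusted p was under 0.05 for 6 of 9 and for 1436 of all genes, and DESeq2 called 0 of 9 with 5 under 0.05. With the replicate number as a block edgeR also called 0 of 9, against 0.671% of all genes. In that fit the lowest adjusted p was 0.0515, for Eed (0.26 ± 0.061). Unadjusted p was then under 0.05 for all but Nipbl (0.113) and Ctcf (0.0766), and for 2375 of all genes. The same libraries enter all 9 estimates, so the shared sign is not 9 separate observations.

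Among the cohesin genes Smc3 differed by 0.19 ± 0.065 between these days (adjusted p = 0.298). Its values were 156.6, 167.9 and 172.7 CPM at day 10 and 197.1, 212.3 and 200.5 CPM at day 13 with miR-125b, which did not overlap. With miR-ctrl they were 174.4, 171.4 and 176.0 CPM and then 201.1, 179.0 and 177.3 CPM, again without overlap but with only replicate 1 far above day 10. Rad21, the ring's closing subunit, differed by 0.15 ± 0.054 (adjusted p = 0.33) and Smc1a by 0.15 ± 0.069 (adjusted p = 0.454). Each of these 3 genes was higher at day 13 in 6 of 6 replicate pairs. Stag2 was higher in 4 of 6, and Nipbl and Ctcf in 5 of 6.

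Of the PRC2 genes Eed differed most, by 0.26 ± 0.078 (adjusted p = 0.251, higher in 5 of 6 pairs). With miR-125b it went from 53.7 to 57.6 CPM at day 10 to 81.2, 73.5 and 75.0 CPM at day 13, without overlap. With miR-ctrl it was at 84.4, 61.0 and 69.5 CPM at day 13, which overlapped its day 10 values, although replicate 1 lay above all of them and was the highest Eed value of the 24 libraries. Suz12 differed by 0.18 ± 0.073 (adjusted p = 0.373, 6 of 6 pairs) and Ezh2 by 0.16 ± 0.070 (adjusted p = 0.428, 5 of 6 pairs). Proliferation genes were higher too, 14 of 15 with a median of 0.11 and 0 of 15 called. Their part in these differences was not tested.

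Withdrawal was set against continued doxycycline at day 13. All 9 estimates were below 0, with a median of -0.033, and 0 of 9 genes and 0% of all genes were called by edgeR. The median over all tested genes was 0.0057, and 52% of them were higher. The same libraries enter all 9 estimates. The continued day 13 libraries also enter the comparison with day 10, with the opposite sign, so the 2 shared signs are not separate observations. Only Eed had an unadjusted p under 0.05, among 410 of all genes, and DESeq2 also had 1 of 9 under 0.05 and called 0. Eed differed by -0.17 ± 0.078 (adjusted p = 1) and was lower after withdrawal in 6 of 6 replicate pairs. Its withdrawal values were 69.7, 66.6 and 73.8 CPM with miR-125b and 63.1, 56.2 and 65.3 CPM with miR-ctrl, and both sets overlapped the continued ones. Without miR-ctrl Day13WD replicate 1 all 9 estimates were again below 0, from -0.18 for Eed to -0.069 for Rad21. Their median was then -0.088, 2 of 9 had an unadjusted p under 0.05, Eed and Smc1a, and 0 of 9 were called (adjusted p = 0.999 for each). Smc1a moved from -0.07 to -0.13, Stag2 from -0.03 to -0.13, Smc3 from -0.0079 to -0.079, Nipbl from -0.0061 to -0.087, Ctcf from -0.012 to -0.088 and Suz12 from -0.03 to -0.09.

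**Figure D4:**
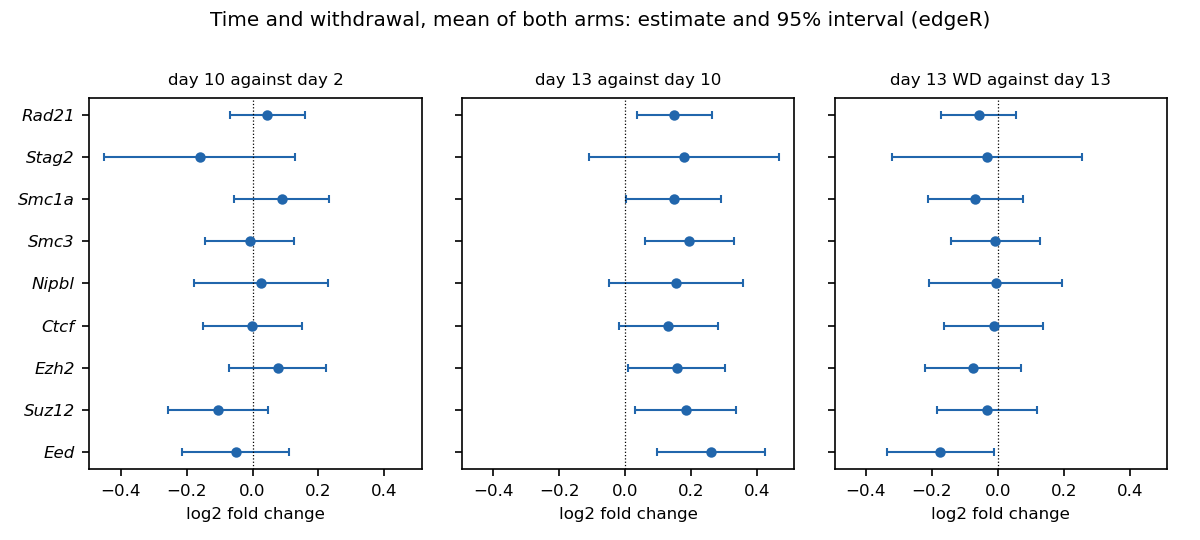
Log2 fold change (horizontal axis) of each gene with its 95% interval from edgeR, averaged over both arms, for day 10 against day 2, continued day 13 against day 10, and withdrawal (WD) against continued day 13. All 9 points lie right of 0 in the middle panel, at 0.13 to 0.26, and left of 0 in the last, though none passed the adjusted threshold. The continued day 13 libraries enter both of these panels, with opposite sign.

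The genes that work with these complexes were examined by lists. Of 17 other cohesin genes, such as loaders, release factors and acetyltransferases, 15 were tested, and of 10 other PRC2 genes 9 were tested. All 18 PRC1 genes, which encode the ubiquitin ligase complex that acts on the chromatin PRC2 marks, and all 3 H3K27 demethylase genes were tested. Without the block, edgeR called 0 of the cohesin, PRC2 and demethylase genes in any of the 10 contrasts. It called 1 of 18 PRC1 genes, upward, at day 10 and over the mean of 4 conditions, against 0.872% and 1.28% of all genes. In the other contrasts it called 0 of 18. Over the 10 contrasts, an unadjusted p under 0.05 was reached by 16 of 150 pairs of cohesin gene and contrast, 3 of 90 for PRC2, 19 of 180 for PRC1 and 0 of 30 for the demethylases. That is 10.7%, 3.33%, 10.6% and 0%, against 8.21% over all genes tested. DESeq2 called 3, 0, 2 and 0 of these pairs, the 3 being Esco1 at day 10 and Pds5a in both comparisons of successive days, and the 2 being Cbx6, or 2% and 1.11% of the cohesin and PRC1 pairs against 0.879% over all genes.

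That gene was Cbx6, a PRC1 subunit that reads H3K27 methylation. It rose with miR-125b by 0.65 ± 0.11 on the log2 scale over the 4 conditions (adjusted p = 0.00311) and was higher in 12 of 12 replicate pairs. At day 10 it rose by 1.08 ± 0.21 (adjusted p = 0.0262). The day 10 call was lost without miR-125b replicate 1 (adjusted p = 0.0983), miR-125b replicate 3 (0.198), miR-ctrl replicate 1 (0.0534) or miR-ctrl replicate 3 (0.162), and with the 2 day 10 groups fitted alone (0.294). The call over 4 conditions held in 24 of 24 fits that each left out 1 library. Some markers of other myeloid cells moved with the arm as well. Over the 4 conditions edgeR called 2 of 6 tested neutrophil markers and 2 of 8 mast cell and basophil markers, all upward with miR-125b. The share over all genes was 1.28%, in either direction. Mpo was among the called markers, at 4.69 (adjusted p = 2.55e-05, edgeR). The neutrophil sum was 23.2 to 98.4 CPM with miR-125b and 5.26 to 42.7 CPM with miR-ctrl, and 6 of its 8 genes averaged under 1 CPM. Of the mast cell and basophil markers 6 of 8 were higher with miR-125b. Of 10 megakaryocyte markers 3 were higher, with a median of -0.25 and 0 called. With the block 1 of these 10 was called upward and 4 downward. The part of these markers in the values of Cbx6 and the other partners was not tested.

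With the replicate number as a block further partners passed. Among cohesin genes Esco1, an acetyltransferase of SMC3, fell with miR-125b at day 10, by 0.43 (adjusted p = 0.0123), and over the 4 conditions, by 0.17 (adjusted p = 0.0356), and was the 1 of 15 called in either. Jarid2, an accessory PRC2 subunit, was the 1 of 9 called over the 4 conditions, where it fell by 0.19 (adjusted p = 0.0361). Phc2, a PRC1 subunit, fell by 0.38 at day 10 (adjusted p = 0.0368) and by 0.18 over the 4 conditions (adjusted p = 0.0476), the 1 of 18 called downward beside Cbx6 upward. With the block, all genes were called at 8.63% at day 10 and 6.39% over the 4 conditions. Cbx6 alone of 18 PRC1 genes was called after withdrawal, where it rose by 0.68 (adjusted p = 0.046), against 1.86% of all genes.

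In time, with the block, 2 of 15 other cohesin genes fell from day 2 to day 10: Pds5a, a cohesin regulator, by 0.24 (adjusted p = 0.0331) and Espl1, the protease that opens the ring, by 0.23 (adjusted p = 0.0165). Jarid2 fell by 0.34 (adjusted p = 0.019) and Phc2 by 0.27 (adjusted p = 0.0499), 1 of 9 PRC2 and 1 of 18 PRC1 genes, against 4.51% of all genes. From day 10 to continued day 13 the 1 of 15 cohesin genes called was Stag1, which rose by 0.31 (adjusted p = 0.0427, higher in 5 of 6 pairs), against 0.671% of all genes. Its mean went from 47.6 to 67.0 CPM with miR-125b and from 55.0 to 60.6 CPM with miR-ctrl. Without the block its adjusted p was 0.208. Ezh1 was called in no contrast by either fit.

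Across the 24 libraries the 9 genes mostly varied in the same direction. Of the 36 pairs, Smc3 and Ctcf had the highest Pearson's r of log2 CPM, 0.893 (Spearman's rho 0.807), and r was 0.832 without the 2 libraries farthest from the median. Ezh2 and Eed, partners in PRC2, followed at 0.819 (rho 0.817, and 0.807 without those 2). Rad21 and Smc3 were at 0.809. Nipbl had the lowest values, with r of 0.088 to Ezh2 and 0.122 to Eed, but it was at 0.561 with Suz12, the third PRC2 gene, and at 0.674 with Ctcf. Without miR-ctrl Day13WD replicate 1 the r of Smc3 with Ctcf was 0.863, that of Ezh2 with Eed 0.818, and that of Nipbl with Ctcf 0.562. The libraries share groups, replicate numbers and depth, so these values describe this set of libraries.

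**Figure D5:**
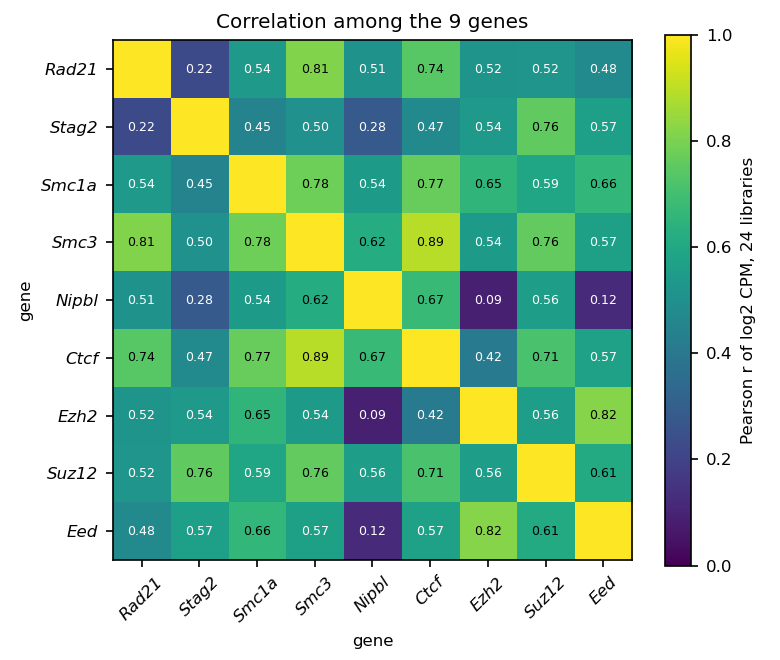
Pearson's r of log2 CPM over 24 libraries for each pair of the 9 genes, from 0 (dark) to 1 (light), with the value in each cell. Smc3 with Ctcf (0.89) and Ezh2 with Eed (0.82) are the highest, and Nipbl with Ezh2 (0.09) and with Eed (0.12) the lowest.

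The 2 genes with the pattern most like each member were sought among 9721 genes with an average log2 CPM of at least 2. Among the cohesin genes, Rad21 was most like Xrn2 (r = 0.833) and Ppp4r3b (0.826), Stag2 like Kcnq5 (0.878) and Nsd2 (0.863), and Smc1a like Pdha1 (0.893) and Lap3 (0.881). Smc3 was most like Mtrex (0.936) and Supt16 (0.926), and Nipbl like Sp1 (0.949) and Phf3 (0.930). Supt16, a subunit of the histone chaperone FACT, was also second for Ctcf (0.910) after Cul4b (0.919). In PRC2, Ezh2 was most like Gtf2e1 (0.927) and Snx1 (0.899), Suz12 like Sdad1 (0.863) and Cstf2 (0.862), and Eed like Rrm2 (0.943), a subunit of ribonucleotide reductase, and Hus1 (0.919). After the mean of each replicate number was subtracted, 4 of these 18 pairs of a member and a gene were again among the nearest: Mtrex for Smc3, Sp1 for Nipbl, Gtf2e1 for Ezh2 and Rrm2 for Eed.

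All of the 9 genes but Nipbl varied with the proliferation genes, with r of 0.443 to 0.808. Promoters were therefore read for E2F-type motifs, which are common at genes of the cell cycle. The part of such motifs in this variation was not tested. RefSeq windows (GRCm38.p6) from 250 bases before to 50 after the start site were given for 6 of the 9 genes, Smc1a, Smc3, Ctcf, Ezh2, Suz12 and Eed. TTTCCCGC, TTTGGCGC, TTTCGCGC and TTTGCCGC were searched on both strands, and 2.26% of 32851 windows held at least 1. Ezh2 held 1 on its own minus strand at chr6:47595020-47595027, Suz12 on the plus strand at chr11:79992887-79992894 and Smc1a on the plus strand at chrX:152016465-152016472. They are printed on the gene's strand with the motif in capitals.
Ezh2 promoter: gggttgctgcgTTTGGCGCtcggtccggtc
Suz12 promoter: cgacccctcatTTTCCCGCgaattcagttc
Smc1a promoter: gcactgcgctaTTTCCCGCgcggg
Smc3, Ctcf and Eed held none in these windows. A match describes the letters of a window and not a bound site.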

How the data were processed

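RNA from 24 libraries was sequenced, and the authors deposited whole-number read counts per gene, not normalized, 1 column per library, with 0 columns unmatched. Per the submitters' processing notes, fastp, HISAT2 2.0.5, featureCounts and mm10 were used. Their settings, annotation and counting strand are not given in the sources used here. Of 47069 identifiers, 46488 matched a GENCODE M21 (GRCm38) symbol, and at most 0.0638% of a library's counts had no symbol.

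The counts were fitted in edgeR 4.0.16 (R 4.3.3), with filterByExpr, TMM factors (0.932 to 1.04), a coefficient for each of 8 groups, the legacy robust quasi-likelihood fit (16 residual degrees of freedom) and 10 contrasts. The 13419 genes tested were adjusted together by Benjamini-Hochberg, and a gene was called at an adjusted p under 0.05. Fold changes are log2 with SE. Whether the ranges of groups overlap is a description without a test, and the share of all genes without overlap was not computed. CPM used TMM-scaled library sizes, and log2 CPM a prior count of 2. The test code was also run on simulated counts without pairing by replicate number. Their spread was near that of the block fit (dispersion 0.0169), and the main fit had 0.0591. That run therefore does not check the main test at the spread and pairing of these libraries. Eed had the fewest reads, at least 901 in each library. For Eed, counting noise was not always small beside the replicate spread. In miR-125b day 2, at 1014 to 1295 reads, its SD was 0.823 on a mean of 63.0 CPM.

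Replicate numbers come from the sample titles. Deviations from the group means correlated above 0.1 in 84 of 84 pairs of libraries with the same number (0.163 to 0.781), so the numbers were taken to pair libraries, and a fit with them as a block was the alternative. Other alternatives were DESeq2 1.42.0, RLE factors, no filter, the newer quasi-likelihood estimate, only the groups compared, and leaving out each library.

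All 9 members were reported, with a fold change where called in either fit or where the unadjusted p was under 0.05. Rad21, Smc1a and Eed over the 4 conditions and Ezh2 and Eed after withdrawal were added after seeing values. So were the change in the Eed difference with time, some values with the block, extremes of a range and values without 1 library. From lists of partners, up to 3 rising and 3 falling called genes were named, with Stag1 and Ezh1. Members and lists were chosen with earlier results of these data known.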

Additional observations from a re-analysis of the deposited data

How the results depend on the processing

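No fold change of the 9 genes with an unadjusted p under 0.05, or of their called partners, changed sign under any alternative run. The block changed no other call among the 9 genes than the one below, and 9 of the 10 contrasts kept 0 of 9 genes called under all of them. At day 10 the replicate block called 1 gene, Eed (adjusted p = 0.0301), and leaving out single libraries gave 0 to 1, with Eed at an adjusted p of 0.0498 without miR-ctrl replicate 2. The block moved the counts over all genes from 117 to 1158 at day 10, from 16 to 249 after withdrawal, from 172 to 858 for the mean of 4 conditions, from 142 to 605 for day 10 against day 2, from 0 to 90 for day 13 against day 10 and from 0 to 2 at continued day 13. The same-order counts with DESeq2 were 554, 90, 357, 368, 82 and 3, with 4 at day 2 and 4 for withdrawal against continued, where edgeR had 0. Without a filter they were 65, 10 and 63 for day 10, withdrawal and day 10 against day 2. The newer estimate gave 31 after withdrawal and 2 at continued day 13. With only the groups compared, 0, 0 and 30 were called for day 10, withdrawal and day 10 against day 2. Leaving out 1 library gave 1 to 799, 5 to 15, 81 to 260, 24 to 251 and 0 to 6 in the order of the first 5 block counts. The cause was not tested. With the longest transcript as length, Ezh2 ranked 3 in place of 6, Suz12 5 in place of 3 and Smc3 6 in place of 5.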
